A study of Mus musculus with 8 samples.

Results

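Glycogen is the branched glucose polymer that animal cells keep as a local fuel store, and in the adult brain most of it lies in astrocytes. The 9 genes described here encode proteins that build the polymer, release glucose from it, or bring protein phosphatase 1 (PP1) to it. They were taken by symbol from a table of 55487 Ensembl mouse genes of which 17047 were tested, and all 9 were found and passed the filter on low counts. The libraries are polyadenylated RNA from the hypothalamus of C57BL/6J mice that were kept for 2 hours in a chamber at 7% oxygen (hypoxia, 4 libraries) or at 21% oxygen (normoxia, 4 libraries). No transgene or deletion is named for either group, and the labels give neither the age nor the sex of the mice.

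Glycogenin primes a new particle, UDP-glucose pyrophosphorylase makes the activated sugar, glycogen synthase extends the chains and the branching enzyme adds side chains. Glycogen phosphorylase removes glucose units as glucose 1-phosphate. PP1 dephosphorylates both synthase and phosphorylase, which turns synthesis on and breakdown off, and it finds its place on the particle through targeting subunits of the PPP1R3 family. In cultured cells several genes of this route, Ppp1r3c and Gys1 among them, have been described as targets of hypoxia-inducible factors.

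Total counts per library ran from 16994473 to 21694383. The tissue label was checked against 12 hypothalamic marker genes, all of which passed the filter. Their summed level was 710 to 980 CPM (counts relative to the library's total, adjusted by edgeR's TMM factors) in 7 libraries and 540 CPM in normoxia replicate 2. Avp, Oxt, Pomc, Agrp, Hcrt, Pmch (160 CPM), Sim1, Otp and Trh were at their lowest there. Npy (39.9 CPM) and Crh (8.24 CPM) were at their highest in the same library. That library also stood apart in 10 cortical and hippocampal neuron markers, at a summed 557 CPM against 149 to 251 CPM in the other 7, and in 7 pituitary markers, at 80.3 CPM. Its cortical sum was mostly Slc17a7 (383.5 CPM), and Neurod6, Emx1, Tbr1, Neurod2 and Cux2 were also at their highest there. Rorb (27.1 CPM) and Prox1 (21.9 CPM) were at their lowest there. Its pituitary sum was mostly Prl (40.4 CPM) and Gh (38.9 CPM). Hypoxia replicate 4 had 42.5 CPM of pituitary markers and the other 6 libraries had 0.193 to 9.73 CPM. Calls of glycogen genes that change without either of these libraries are given with and without it.

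After 2 hours at 7% oxygen, 2 of the 9 genes were higher than in normoxia and 0 were lower. Both of the genes that rose, Ppp1r3c and Ppp1r3d, encode PP1 targeting subunits, and each rose about 2-fold. The 4 genes of synthesis and the 2 phosphorylase genes were not called, although Gys1 lay just short of the threshold. Among all genes tested, 0.915% were called higher and 1.23% lower (edgeR quasi-likelihood test, Benjamini-Hochberg adjusted p under 0.05). The median log2 fold change, hypoxia relative to normoxia, was 0.038 over the 9 genes and −0.0085 over all genes tested (0.011 and 0.0028 without normoxia replicate 2). Without normoxia replicate 2 and hypoxia replicate 4 together, 3 of the 9 genes were higher and 0 were lower, with Gys1 as the additional call. Without any 1 of the other 6 libraries, the count was 1 of the 9, which was Ppp1r3c.

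**Figure D1:**
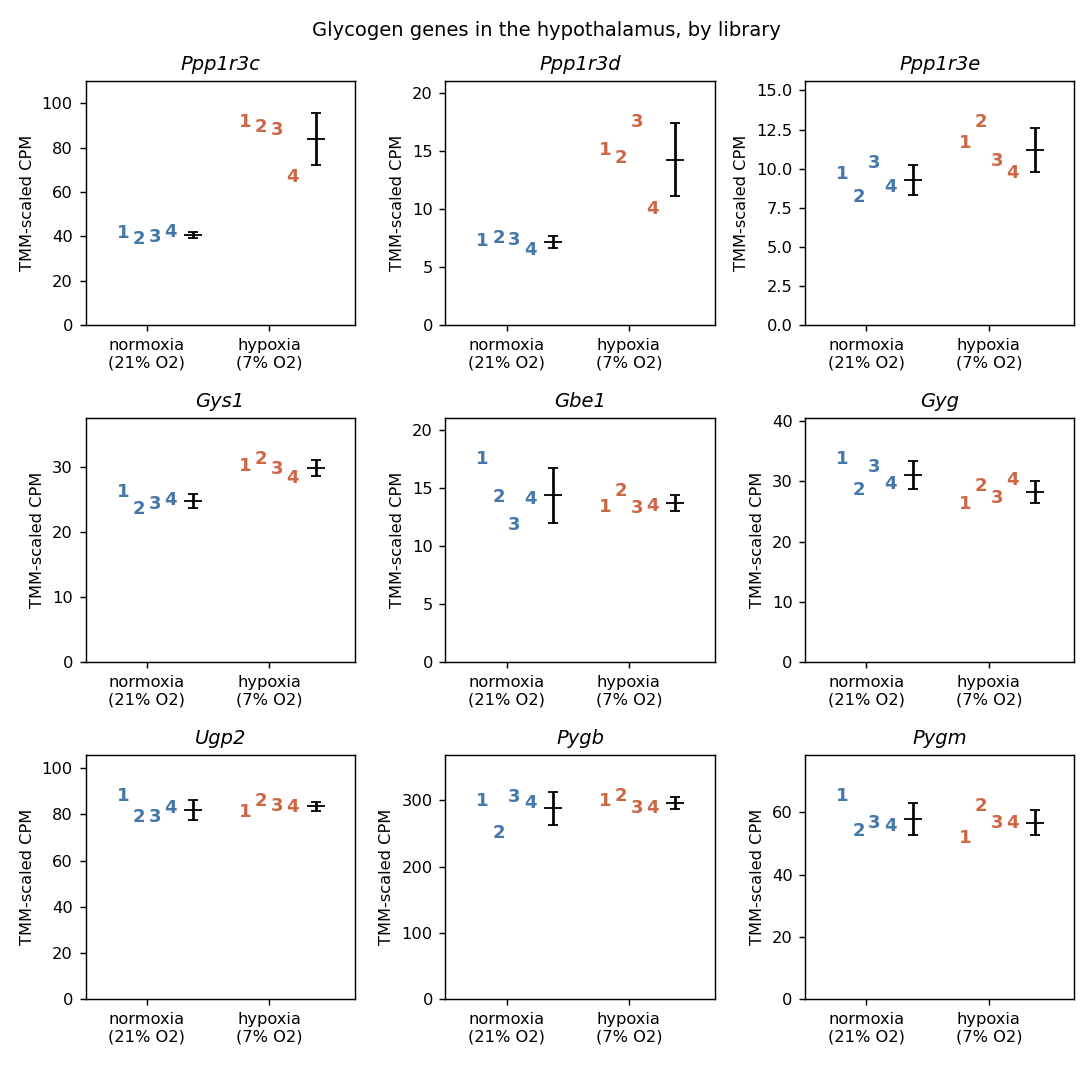
Levels of the 9 glycogen genes in TMM-scaled CPM (vertical axes, each from 0) in the 4 normoxia and 4 hypoxia libraries. Each digit is 1 library placed at its value and named by its replicate number, and the black bar with whiskers is the mean ± SD. The groups do not overlap for Ppp1r3c, Ppp1r3d and Gys1, and hypoxia replicate 4 is the lowest hypoxia library in all 3.

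Ppp1r3c encodes PTG (protein targeting to glycogen), the PP1 subunit that binds both synthase and phosphorylase and raises glycogen stores when overexpressed. The gene lies on chromosome 19 (36731731 to 36736653, minus strand, mm10), and no annotated gene overlaps it on the opposite strand. Its levels in hypoxia replicates 1 to 4 were 91.7, 89.4, 88.1 and 66.7 CPM. In normoxia replicates 1 to 4 they were 41.5, 39.0, 39.8 and 42.1 CPM. Every hypoxia library was above every normoxia library, and the normoxia libraries lay close together while hypoxia replicate 4 fell short of its group. The means were 84.0 ± 11.6 and 40.6 ± 1.46 CPM (SD, n = 4 each). By edgeR's quasi-likelihood test the log2 fold change was 1.05 with an SE of 0.095, and the adjusted p was 0.00395. Ordered by p-value, it stood at place 4 of 17047 genes. It was called in all 8 fits that left out 1 library, with a log2 fold change from 1.004 to 1.145.

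Ppp1r3d encodes another PP1 targeting subunit, PPP1R3D, which also recruits the phosphatase to glycogen. It lies on chromosome 2 (178411206 to 178414472, minus strand, mm10), again with no overlapping gene. In hypoxia replicates 1 to 4 it stood at 15.1, 14.4, 17.5 and 10.0 CPM. In normoxia replicates 1 to 4 it stood at 7.29, 7.55, 7.35 and 6.45 CPM. The groups did not overlap, and hypoxia replicate 4 was again the lowest of its group. The raw counts behind these values were 128 to 155 in normoxia and 201 to 363 in hypoxia. The mean rose from 7.16 ± 0.487 to 14.3 ± 3.13 CPM (SD, n = 4 each). In the edgeR test this was 0.997 on the log2 scale, with an SE of 0.16 and an adjusted p of 0.0228. This call, unlike that of Ppp1r3c, depended on which libraries were used. Leaving out hypoxia replicate 4 gave an adjusted p of 0.00185, and leaving out normoxia replicate 2 gave 0.0161. Without any 1 of the other 6 libraries the adjusted p was 0.0687 to 0.103, and the log2 fold change was 0.88 to 1.02.

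Ppp1r3e, the third targeting subunit gene of the set, is on chromosome 14 (54872669 to 54877550, minus strand, mm10). It had 11.6, 13.0, 10.5 and 9.73 CPM in hypoxia replicates 1 to 4. In normoxia replicates 1 to 4 it had 9.69, 8.19, 10.3 and 8.86 CPM. The groups overlapped, since hypoxia replicate 4 lay below normoxia replicate 3. The log2 fold change was 0.27 (95% interval 0.013 to 0.54), and the gene was not called (adjusted p = 0.237) with all libraries or with any 1 left out. Of the 3 targeting subunits, then, 2 were higher, and the interval of Ppp1r3e lay below those of Ppp1r3c (0.83 to 1.26) and Ppp1r3d (0.64 to 1.35). The difference between these genes was not tested.

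Per kilobase of merged exons, Ppp1r3c was the most abundant of the 3 subunits in all 8 libraries. It made up 71.4, 71.9, 69.6 and 73.7% of their summed level per kilobase in normoxia replicates 1 to 4, and 78.4, 77.3, 77.2 and 77.9% in hypoxia replicates 1 to 4. The share of Ppp1r3e was lower in hypoxia, at 11.3 ± 1.15% against 17.8 ± 1.45% in normoxia (SD, n = 4 each), with no overlap. Its own level did not fall, at 3.69 ± 0.375 CPM per kilobase in normoxia and 4.47 ± 0.568 in hypoxia. The share of Ppp1r3d was 10.6 ± 0.911% in normoxia and 10.9 ± 1.32% in hypoxia, and these overlapped. Hypoxia replicate 4, which was low in the levels of all 3 subunits, was not low in the share of Ppp1r3c.

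The stretches of DNA just before the starts of the members that rose, and of Gys1 as the member nearest to the threshold, are shown because their letters can be set beside the measured changes. They come from RefSeq's GRCm38.p6 annotation, read 5′ to 3′ on the strand of each gene, and end before the annotated transcript. Capitals mark ACGTG and GCGTG, the core letters that hypoxia-inducible factors bind, on either strand (as CACGT and CACGC on the other). Where ACGTG on both strands overlaps, the letters read CACGTG, which is also the E-box of other transcription factors.
Ppp1r3c, chr19:36736654-36736854, minus strand: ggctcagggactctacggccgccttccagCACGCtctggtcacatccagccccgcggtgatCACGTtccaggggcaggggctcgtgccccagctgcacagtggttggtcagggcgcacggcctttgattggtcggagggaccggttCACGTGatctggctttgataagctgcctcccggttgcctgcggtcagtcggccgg
Ppp1r3d, chr2:178414473-178414713, minus strand: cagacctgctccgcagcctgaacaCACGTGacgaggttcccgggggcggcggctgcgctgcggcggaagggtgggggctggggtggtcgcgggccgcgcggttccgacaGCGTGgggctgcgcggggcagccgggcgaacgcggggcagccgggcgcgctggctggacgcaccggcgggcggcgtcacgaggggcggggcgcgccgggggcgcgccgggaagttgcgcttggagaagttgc
Gys1, chr7:45434589-45434838, plus strand: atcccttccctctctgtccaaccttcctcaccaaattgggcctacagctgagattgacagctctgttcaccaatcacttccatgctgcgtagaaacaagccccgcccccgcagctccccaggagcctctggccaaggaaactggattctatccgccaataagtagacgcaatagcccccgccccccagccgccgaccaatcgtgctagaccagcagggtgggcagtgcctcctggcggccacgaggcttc

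In the full window of 250 bases before the RefSeq start, Ppp1r3c held 3 matches to ACGTG and 1 to GCGTG, and Ppp1r3d held 2 and 1. One CACGTG accounts for 2 of the ACGTG matches in each, and its first letter was 104 bases before the start in Ppp1r3c and 226 bases before it in Ppp1r3d. RefSeq windows were at hand for 8 of the 9 members. Of these, 6 held ACGTG or GCGTG in at least 1 window, including Gyg, Ugp2, Pygb and Pygm, which were not called. Of the members, Ppp1r3c and Ppp1r3d were the 2 with CACGTG. It also stood in the windows of G6pc3, Gaa and Pgm2l1, other genes of glycogen metabolism that were not called. Of all 32851 RefSeq windows of this length, 38.6% held ACGTG or GCGTG, 16.6% held ACGTG, 28.2% held GCGTG and 6.02% held CACGTG. These are matches of letters in a short window, and binding was not measured here.

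Gys1 encodes the glycogen synthase of muscle and brain, which adds glucose to the growing chain. It lies on chromosome 7 (45434844 to 45456619, plus strand, mm10). It was at 30.1, 31.2, 29.7 and 28.3 CPM in hypoxia replicates 1 to 4 and at 26.1, 23.5, 24.3 and 24.97 CPM in normoxia replicates 1 to 4. Every hypoxia library was above every normoxia library by a small margin. The same holds of 5.69% of all genes tested, and of 3 of the 9 members, while 0 members lay wholly below normoxia, as 7.75% of all genes tested did. The log2 fold change was 0.27 (SE 0.059; 95% interval 0.14 to 0.40), and edgeR did not call the gene (adjusted p = 0.0524). DESeq2 called it (adjusted p = 0.0122), as edgeR did without hypoxia replicate 4 (0.0408) or normoxia replicate 2 (0.0494). Without any 1 of the other libraries the adjusted p was 0.085 to 0.169. Ruvbl2 overlaps its exons by 310 bases on the opposite strand, and Ruvbl2 itself had a log2 fold change of 0.0062 (26.1 ± 0.728 CPM against 26.0 ± 1.39 CPM in normoxia; SD, n = 4 each).

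The other synthesis genes did not pass the test, and their groups overlapped. Ugp2, which makes UDP-glucose, is on chromosome 11 (21321138 to 21371201, minus strand, mm10) and had 81.0 to 86.0 CPM in hypoxia and 78.9 to 88.0 CPM in normoxia. Its log2 fold change of 0.025 had a 95% interval from −0.084 to 0.13, the narrowest of the 9 genes. Gyg, which encodes the primer protein glycogenin, is on chromosome 3 (20122084 to 20155317, minus strand) and had 26.2, 29.2, 27.3 and 30.2 CPM in hypoxia replicates 1 to 4. In normoxia replicates 1 to 4 it had 33.7, 28.6, 32.3 and 29.6 CPM. Its log2 fold change of −0.14 was the lowest of the 9 (95% interval −0.31 to 0.027; adjusted p = 0.336). Gbe1, the branching enzyme, is on chromosome 16 (70313949 to 70569716, plus strand) and had 13.3 to 14.7 CPM in hypoxia and 11.8 to 17.5 CPM in normoxia. Its log2 fold change was −0.072 (95% interval −0.33 to 0.18), and 0.041 without normoxia replicate 1.

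The phosphorylase genes, which encode the enzymes that take glucose off the chain, were also not called. Pygb, the brain isoform, is on chromosome 2 (150786735 to 150831758, plus strand, mm10). It was at 298.8, 306.6, 288.9 and 289.2 CPM in hypoxia replicates 1 to 4 and at 299.4, 251, 305.3 and 296.5 CPM in normoxia replicates 1 to 4. Normoxia replicate 2 lay below the other 7, which spanned 288.9 to 306.6 CPM. The log2 fold change was 0.038 (95% interval −0.11 to 0.18) and −0.017 without that library. Pygm, the muscle isoform, which astrocytes also express, is on chromosome 19 (6384399 to 6398459, plus strand). It had 51.9 to 61.9 CPM in hypoxia and 54.2 to 65.3 CPM in normoxia, with a log2 fold change of −0.03 (95% interval −0.20 to 0.14). Of the summed Pygb and Pygm level per kilobase, Pygm made up 20.6 to 23.2% in hypoxia and 21.7 to 24.6% in normoxia, and the groups overlapped. The 95% intervals of Ugp2, Pygb and Pygm all lay within a log2 of 0.2 of 0, so changes of the size seen in Ppp1r3c lie outside them.

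Per kilobase, the 9 genes spanned a wide range of levels. In normoxia the order from high to low was Pygb (59.9 ± 5.18 CPM per kilobase), Ugp2 (26.8 ± 1.41), Pygm (18.0 ± 1.56) and Ppp1r3c (14.9 ± 0.536). Then came Gyg (13.3 ± 1.01), Gys1 (5.16 ± 0.229), Ppp1r3e (3.69 ± 0.375), Gbe1 (2.69 ± 0.44) and Ppp1r3d (2.19 ± 0.149; SD, n = 4 each). Neighbours in this order overlapped in 3 cases. The lowest Ppp1r3c value was 14.3 and the highest Gyg value 14.4, the lowest Ppp1r3e value was 3.265 and the highest Gbe1 value 3.268, and the lowest Gbe1 value was 2.20 and the highest Ppp1r3d value 2.31. The other neighbouring pairs did not overlap. In hypoxia Ppp1r3c stood at 30.8 ± 4.25 CPM per kilobase, above the mean of Ugp2 (27.2 ± 0.663), although hypoxia replicate 4 had less Ppp1r3c (24.5) than Ugp2 (27.2). Ppp1r3d rose to 4.37 ± 0.957, within the range of Ppp1r3e (3.88 to 5.19). The level of Gys1 relative to both phosphorylases together was 0.0787 ± 0.00187 in hypoxia and 0.0664 ± 0.0035 in normoxia, with no overlap between the groups. Lengths are those of all annotated exons merged, so a gene with rarely used exons is placed too low.

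**Figure D2:**
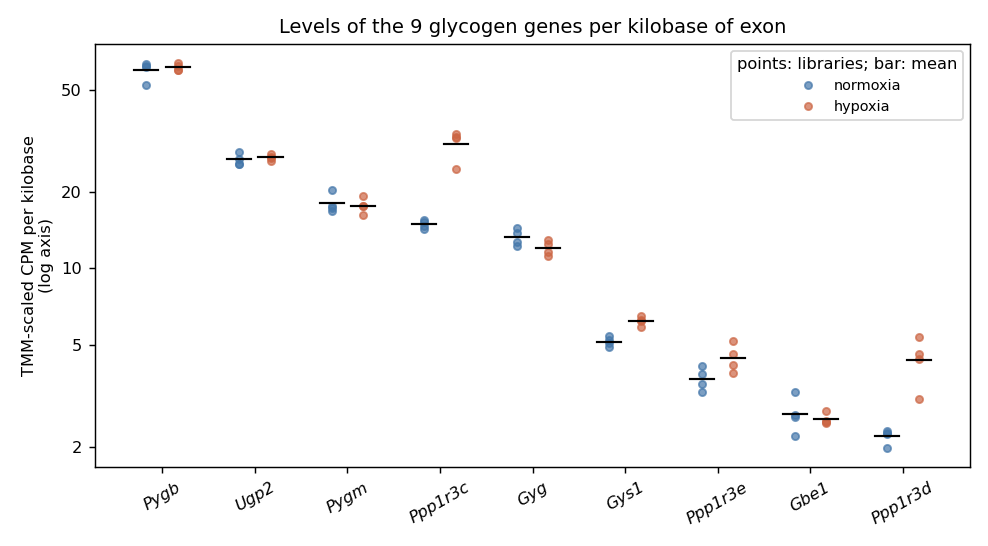
Levels of the 9 genes in TMM-scaled CPM per kilobase of merged exons (vertical log axis), ordered by their normoxia mean; each point is 1 library and each black bar the mean of 4. Pygb is the highest in both groups, and Ppp1r3c moves from 14.9 in normoxia to 30.8 in hypoxia.

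Outside these 9 genes, a list of 26 further genes of glycogen metabolism held 24 that passed the filter, and edgeR called 0 of them higher and 0 lower. At an unadjusted p under 0.05 there were 5, where 19.3% of all genes tested were, and DESeq2 called 1 (Gsk3b) and limma-voom 0. Their median log2 fold change was 0.07, and 19 of 24 were positive, where 48.2% of all genes tested were. With scaling by library size alone 15 of 24 were positive, and without normoxia replicate 2 it was 16 of 24. All hypoxia libraries were below all normoxia libraries in 0 of the 24, and in 7.75% of all genes tested. Where 5.69% of all genes tested had all hypoxia libraries above all normoxia libraries, 4 of the 24 did. Among these were Slc37a4, the glucose 6-phosphate carrier (log2 0.24, adjusted p = 0.0756), Gsk3b, a kinase that inhibits synthase (0.15, 0.113), and Pgm1, which interconverts glucose 1- and 6-phosphate (0.22, 0.16).

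Among the remaining PP1 targeting subunits, Ppp1r3g was at 2.90, 3.46, 3.19 and 2.65 CPM in hypoxia replicates 1 to 4 and at 1.32, 3.94, 0.804 and 0.999 CPM in normoxia replicates 1 to 4. Normoxia replicate 2, the library with the highest summed cortical markers, was the highest of all 8 in Ppp1r3g. The other 3 normoxia libraries were below every hypoxia library. The log2 fold change was 0.79 (95% interval −0.18 to 1.77; edgeR adjusted p = 0.348) with all libraries and 1.54 (adjusted p = 0.00746) without normoxia replicate 2. The part of the cortical markers in this was not tested. Ppp1r3b, the subunit best known from liver, had a log2 fold change of −0.31 (95% interval −0.69 to 0.074), and Ppp1r3f had 0.21 (−0.14 to 0.55). Ppp1r3a, the skeletal muscle subunit, had 24 counts in normoxia replicate 1 and 0 to 5 in the other 7 libraries, and was not tested. Gys2, the liver synthase, had 0 to 2 counts per library, at or under the limit of 3 counts that a count of 0 allows.

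The genes for the PP1 catalytic subunits, which the targeting subunits bring to glycogen, were not called. Ppp1ca and Ppp1cb had log2 fold changes of 0.0055 and 0.012. Ppp1cc had −0.13, and 0.15 without normoxia replicate 2, where it was at 96.9 CPM against 50.1 to 60.5 CPM in the other 7 libraries. Of the 5 genes for phosphorylase kinase, which switches phosphorylase on, 0 were called, and their log2 fold changes ran from −0.19 (Phkg1) to 0.18 (Phka1, and 0.11 without normoxia replicate 2). Phka2, Phkb and Phkg2 had 0.15, 0.051 and 0.0006. Epm2a and Nhlrc1, which encode laforin and malin, a pair that limits abnormal glycogen and is known to act on PTG, had 0.089 and 0.15 (95% intervals −0.038 to 0.22 and −0.045 to 0.35). The liver phosphorylase gene Pygl had 0.096, the lysosomal glucosidase gene Gaa 0.21 and the glycogen-binding protein gene Stbd1 −0.23. Without normoxia replicate 2 these were −0.0085, 0.10 and −0.33. The list also held Gsk3a (0.029), Pgm2 (−0.18), Pgm2l1 (0.017) and G6pc3 (0.051), and none of these was called.

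**Figure D3:**
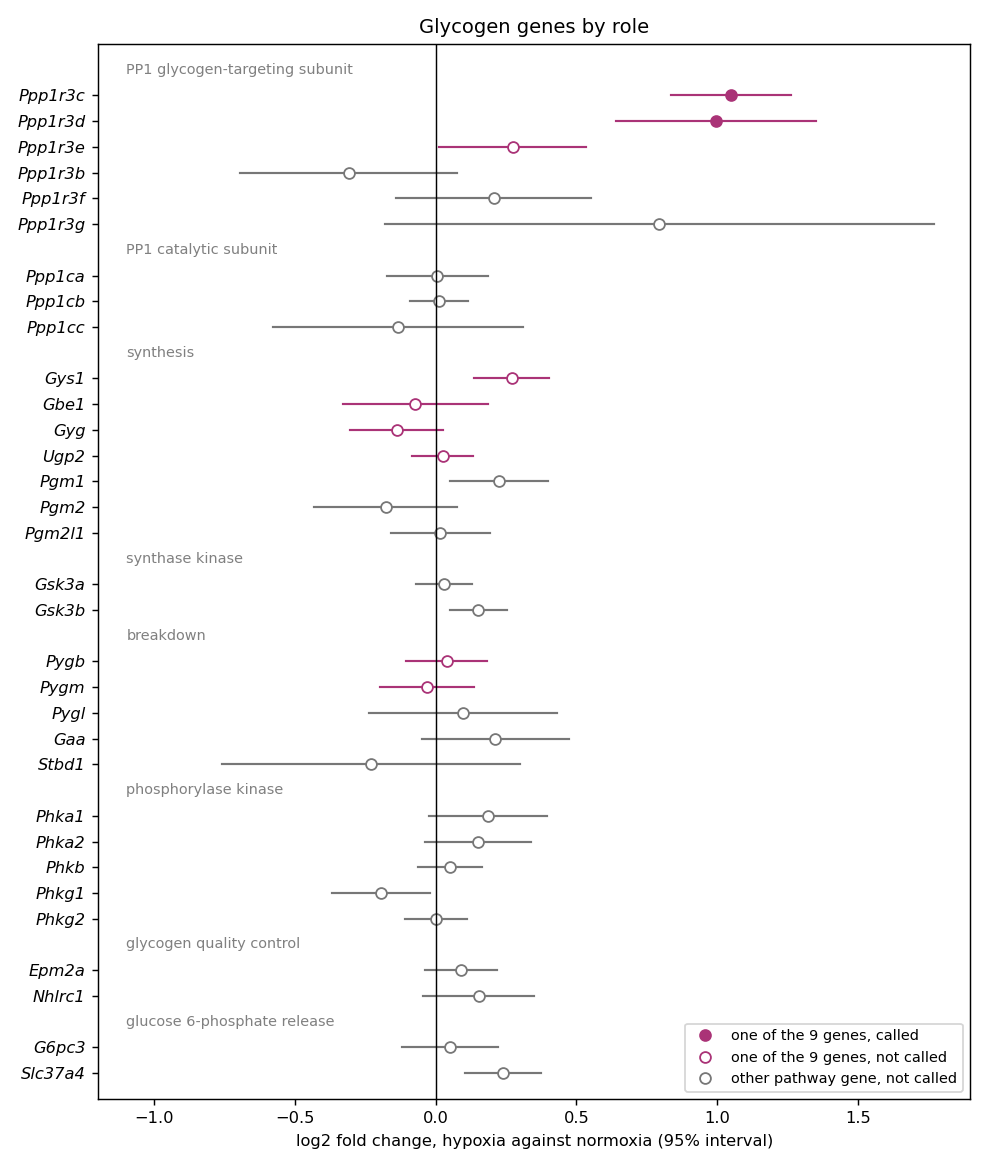
The log2 fold change of the tested glycogen genes that are named here, hypoxia against normoxia (horizontal axis), with its 95% interval from edgeR's standard error, grouped by role. Purple marks the 9 genes and grey the other pathway genes; filled points were called. The filled points are Ppp1r3c at 1.05 and Ppp1r3d at 0.997.

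Markers of cell types that the dissected piece could hold were set beside the glycogen genes, and their part in the results was not tested. In bulk RNA, fewer cells of a type and less RNA per cell cannot be told apart. The summed level of 13 astrocyte markers was 5424 to 5550 CPM in hypoxia and 5163 to 5683 CPM in normoxia, with a median log2 fold change of 0.05. Of these 13, 8 had a positive log2 fold change, 1 was called higher (Gjb6, log2 0.34) and 0 lower. The negative ones were Sox9 (−0.48, edgeR adjusted p = 0.0959), Gfap (−0.20), Aqp4 (−0.18), Gja1 (−0.12) and S100b (−0.10). The 10 skeletal muscle markers summed to 6.34 to 7.68 CPM in hypoxia and 5.90 to 8.37 CPM in normoxia. Ckm was at 0 counts in 7 of 8 libraries. Normoxia replicate 1 was the highest library both in this sum (8.37 CPM) and in Pygm (65.3 CPM). It was also the highest in the summed astrocyte (5683 CPM), endothelial (337 CPM) and oligodendrocyte (11450 CPM) markers. Within the muscle list, Atp2a1 (2.40 CPM), Mylpf (1.32 CPM) and Tnni2 (0.188 CPM) were at their highest in that library. Acta1 (2.49 CPM), Myh1 (0.094 CPM) and Myh2 (0.376 CPM) were at their lowest there. Without that library the log2 fold change of Pygm was 0.038. The summed endothelial and oligodendrocyte markers overlapped between the groups, at 275 to 316 against 293 to 337 CPM and at 6661 to 9836 against 6437 to 11450 CPM. Of the tested endothelial markers 3 of 10 had a positive log2 fold change (median −0.077), and of the oligodendrocyte markers 1 of 8 did (median −0.13). Of the hypothalamic markers 10 of 12 were positive (median 0.23), and of the cortical and hippocampal neuron markers 2 of 9 (median −0.28), with normoxia replicate 2 the lowest library in the first sum and the highest in the second. In each of these 4 lists edgeR called 0 genes.

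The genes whose levels were most like those of Ppp1r3c were sought among 13744 tested genes whose mean reached 1 CPM, by the Pearson correlation of log2 CPM over the 8 libraries. The first 5 were Vegfa, the gene of the vascular growth factor VEGF-A (r = 0.992), Depp1 (0.990), Smap2 (0.990), Gpr146 (0.989) and Acer2, an alkaline ceramidase gene (0.989). Since all share the step between the groups, r was also taken after removing the group means. It was then 0.949 for Vegfa, 0.910 for Gpr146, 0.862 for Smap2, 0.838 for Depp1 and 0.819 for Acer2. The 5 genes were picked by r over these same 8 libraries, so the second r is not a separate check. The 8 points share libraries and their scaling, and hypoxia replicate 4 was the lowest hypoxia library in all 5 as in Ppp1r3c. Their own log2 fold changes were 1.29 for Vegfa, 4.71 for Depp1, 0.62 for Gpr146 and 1.03 for Acer2, all called, and 0.17 for Smap2, which was not called (edgeR adjusted p = 0.0634). Vegfa, Depp1 and Acer2 were called in all 8 fits that left out 1 library. Gpr146 was called in 3 of these 8, and its adjusted p was 0.0509 to 0.0671 without normoxia replicate 3 or 4 or hypoxia replicate 1, 2 or 3.

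**Figure D4:**
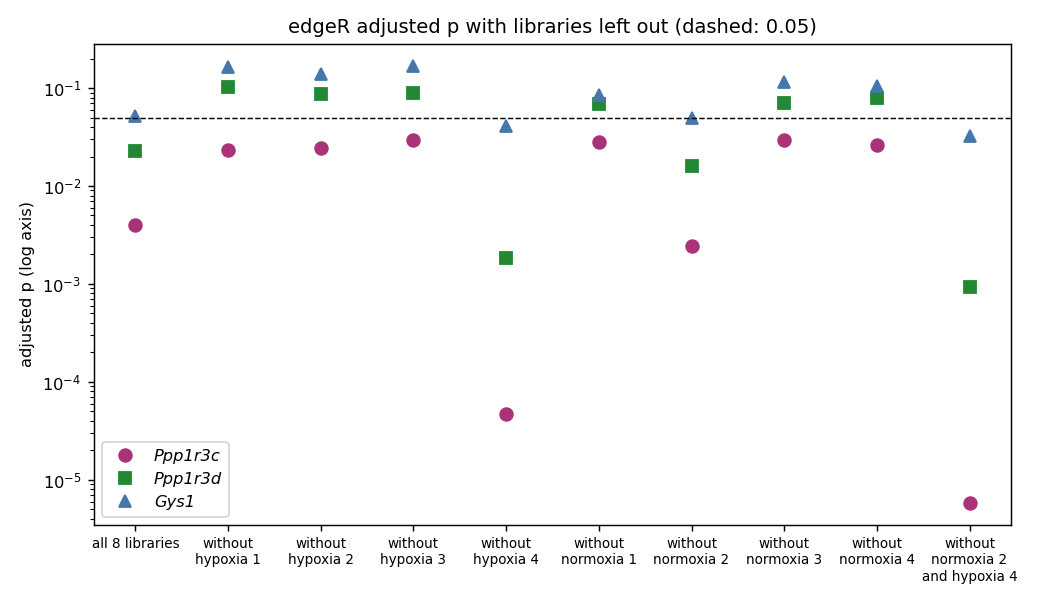
The edgeR adjusted p (vertical log axis; dashed line at 0.05) of Ppp1r3c, Ppp1r3d and Gys1 with all 8 libraries, with each library left out in turn, and with normoxia replicate 2 and hypoxia replicate 4 both left out. Ppp1r3c lies below the line in all of these fits, and Ppp1r3d and Gys1 lie above it without any 1 of the 6 libraries other than hypoxia replicate 4 and normoxia replicate 2.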

How the data were processed

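The values deposited by the authors are raw read counts for each Ensembl gene and library. Per the submitters' processing notes, the software included featureCounts, HISAT2 2.0.4, HISAT, Trimmomatic, DESeq2 and SAMtools, listed without their roles, and the build was mm10. Which annotation was used, whether counting was by strand, and what was done with reads of several possible origins are not stated in the labels. Table columns carry the names found in the sample descriptions. Symbols (matched for 55141 genes of 55487), positions and exon lengths are from GENCODE M21 (GRCm38, the assembly behind mm10).

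The whole table was fitted with edgeR 4.0.16 (R 4.3.3). filterByExpr with a minimum count of 10 and total of 15 chose the genes, TMM set the scaling, and the quasi-likelihood F test compared the groups with no covariate. A gene was called at an adjusted p below 0.05 (Benjamini-Hochberg, all tested genes). The SE is the log2 coefficient over the square root of F, and 95% intervals use the degrees of freedom of the test. Correlations used log2 CPM with a prior count of 2. The test was checked on simulated counts with known changes. These were drawn from the fitted spread of each gene with no library set apart, so the check does not cover such a library. Chi-square values of 4.62 to 37.4 per gene within groups were above sampling noise, so no library was treated as a repeat. The submitters call the libraries biological replicates, and p-values reflect the spread among these 8.

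Members, pathway and marker lists and alternatives were chosen with earlier results of these data known. All 9 members and the 26 pathway genes are named, except 1 that is not reported here, plus the 5 genes most like the member with the smallest p, leaving out pseudogenes and unnamed models. Alternatives were DESeq2 1.42.0, limma-voom (limma 3.58.1), other scalings and filters, a looser threshold, robust estimation, a newer form of the test, a block for the replicate number, and libraries left out.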

Additional observations from a re-analysis of the deposited data

Results flagged for a closer look

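In 32 tested glycogen genes, the highest or lowest library of each group of 4 was checked for a gap to its nearest neighbour that exceeded Dixon's 95% critical value as a share of the group's range. Of 64 groups, 5 showed such a library, and chance flags about 1 in 20. Ppp1r3c was at 66.7 CPM in hypoxia replicate 4, against 88.1 to 91.7 CPM in the rest of its group (gap over range 0.857). Gbe1 was at 14.7 CPM in hypoxia replicate 2, against 13.3 to 13.4 CPM (0.901), a small step in a narrow group. The other 3 were in normoxia replicate 2, the library with the highest summed cortical and pituitary markers. Pygb was at 251 CPM there, against 296.5 to 305.3 CPM (0.837), Ppp1r3g at 3.94 CPM, against 0.804 to 1.32 CPM (0.836), and Ppp1cc at 96.9 CPM, against 50.1 to 53.3 CPM (0.933).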

How the results depend on the processing

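Ppp1r3c was called higher in all 19 alternative fits. Ppp1r3d was called in 9 of the 10 that kept every library, and Gys1 in 5 of them. With libraries left out, 1 to 3 of the 9 genes and 0 to 1 of the pathway genes were called higher (Ppp1r3g, without normoxia replicate 2 alone or with hypoxia replicate 4), while all genes called ran from 24 to 456 higher and from 2 to 739 lower. Without 1 library, all genes called were 236 higher and 457 lower without hypoxia replicate 4, 329 and 346 without normoxia replicate 2, and 24 to 42 and 2 to 8 in the remaining 6 fits (cause not tested). DESeq2 called 362 genes higher and 600 lower, 3 of the 9 genes, and 1 pathway gene, Gsk3b. An adjusted p under 0.1 gave 384 and 674, and 1 pathway gene, Slc37a4. Library size as the only scaling gave 146 and 342.

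With the replicate number as a block, edgeR called 1 of the 9 genes (Ppp1r3c), 20 genes higher and 1 lower, and it no longer called Gpr146 (adjusted p = 0.0889) or Acer2 (0.0592). Same-numbered libraries did not deviate together (correlations of deviations from the group means from −0.105 to 0.043), and no hypoxia library correlated best with the normoxia library of its own number, so the numbers were not taken as pairs.

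The genes that changed sign under some setting were not called under any of those run. Scaling by library size alone gave −0.00029 for Ugp2, −0.019 for Ppp1ca, −0.013 for Ppp1cb, −0.0086 for Pgm2l1 and −0.025 for Phkg2. Phkg2 was also at −0.00005 with at least 1 CPM in 4 libraries, −0.00071 with limma-voom and −0.00078 with the replicate block. With libraries left out the range was −0.15 to 0.041 for Gbe1, −0.017 to 0.073 for Pygb, −0.072 to 0.038 for Pygm, −0.035 to 0.098 for Ppp1ca, −0.0078 to 0.038 for Ppp1cb and −0.22 to 0.15 for Ppp1cc. It was −0.066 to 0.085 for Pgm2l1, −0.079 to 0.19 for Pygl, −0.39 to 0.0024 for Stbd1, −0.027 to 0.032 for Phkg2 and −0.0081 to 0.10 for G6pc3. The cause was not tested. Ppp1r3g had 14 to 74 counts per library.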
